A study of Rattus norvegicus with 5 samples.

Results

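The abundant transcripts of a rat blood cell preparation sorted as myeloid-derived suppressor cells were described here. Members were chosen by their measured values: a probe entered if it carried exactly 1 gene symbol and had a log2 signal of 15 or more on each of the 5 arrays. This rule took 319 probes for 314 genes, which is 5.24% of the 5990 genes that have such a probe. Because the signal itself selected these genes, their brightness is a description and no test was made on it. The median of the mean log2 signal was 16.64 over the member genes and 9.63 over all named genes.

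The cells came from the blood of LEW.1A rats taken at day 100 after a kidney graft. The 3 tolerant arrays are from rats that received an MHC-mismatched LEW.1W kidney and the anti-CD28 antibody JJ319, and the 2 syngeneic arrays are from rats that received a LEW.1A kidney, for which the labels name no antibody. Both strains share a genetic background and differ in MHC haplotype (RT1u in LEW.1W, RT1a in LEW.1A). The allograft kidneys were 8 to 12 weeks old, both native kidneys of allografted rats were removed 7 days after grafting, and the age of the recipients is not given. After hypotonic lysis of red cells, cells bearing MHC class II (antibody OX6) or CD3 (antibody G4.18) were removed with beads, and cells stained with the CD80 and CD86 antibodies 3H5 and 24F were collected magnetically. The preparation is thus defined by surface antigens and can hold several cell types. The design text speaks of 3 recipients in each group, and no label ties an array to an animal. The arrays of both groups were used together, and no difference between the tolerant and syngeneic groups was tested.

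Myeloid-derived suppressor cells are a functional class of immature or activated monocytes and granulocytes that restrain T cells. Circulating monocytes and granulocytes carry lysozyme, cathepsins, S100 proteins and the subunits of the phagocyte oxidase, and they signal through adaptor proteins such as Tyrobp (DAP12). In most mammalian cells the messages of ribosomal proteins, elongation factors, actin and ferritin are among the most plentiful, so an abundance ranking shows both the common machinery and the lineage of a preparation.

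The arrays share 1 distribution of values, because the deposited values were quantile normalized: the brightest probe of every array has a log2 signal of 20.88 and the median probe 9.41. A background level was set on each array at the 95th percentile of the probes for olfactory receptors, which blood cells are not expected to express, and it lay between 10.76 and 11.17. Of the named genes, 314 (5.24%) were members and 1027 others (17.1%) lay above background on every array. Another 1448 (24.2%) lay above it on some arrays, and 3201 (53.4%) were at background on all 5. Every list count below is to be read beside these shares. The array syngeneic 2 stood apart. Over the member probes its correlation with the other 4 arrays was 0.85 to 0.90, against 0.95 to 0.97 among those 4, and it alone kept 40 probes out of the set where each other array kept out 5 to 11. Without syngeneic 2 the rule would take 352 genes.

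A brighter probe is not necessarily a more abundant message, since 60-base probes of 1 gene can differ in signal. Why they differ was not tested. Among the 17 member genes with more than 1 probe, the brightest and dimmest probe of a gene differed by a median of 2.83 on the log2 scale. In 12 of the 17 at least 1 probe missed the threshold. A gene needs only 1 bright probe to be a member, which can widen this difference. Over all 106 named genes with more than 1 probe the median difference was 0.90. Ranks below are ranks of probe brightness.

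The translation machinery led the ranking, and the starts of its genes are shown first because their letters are a feature that the rule did not use. Messages for ribosomal proteins and elongation factors of mammals typically begin with a cytosine at the cap followed by a run of pyrimidines, the terminal oligopyrimidine motif, through which their translation follows nutrient and growth signals. The 30 bases around the annotated start of Eef1a1 and of the 10 brightest ribosomal genes with an entry in the RefSeq promoter table (build GRCr8) are given 5′ to 3′ on the strand of the gene. Base 16 of each is the annotated start, and capitals mark the run of C and T that begins with a C within 5 bases of it.
Eef1a1, chr8:88225055-88225084, minus strand: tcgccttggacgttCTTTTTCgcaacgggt
Rpl41, chr7:1563483-1563512, minus strand: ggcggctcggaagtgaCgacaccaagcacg
Rplp1, chr8:71290858-71290887, minus strand: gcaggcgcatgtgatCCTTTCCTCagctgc
Rpl17, chr18:70856261-70856290, plus strand: tagccttcgcgCTTCCTCTTCCTgttagcg
Rps21, chr3:187724023-187724052, plus strand: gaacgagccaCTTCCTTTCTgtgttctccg
Rpl9, chr14:43247575-43247604, plus strand: gacgaaggacgttCTCTCTTTgccccatct
Rps18, chr20:4933730-4933759, plus strand: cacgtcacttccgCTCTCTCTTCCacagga
Rpl31, chr9:49143096-49143125, plus strand: ccacaatccctcgcgCCTTTCCTTTCCaac
Rpl10, chrX:157205835-157205864, plus strand: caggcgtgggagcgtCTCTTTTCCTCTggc
Rpl24, chr11:58128391-58128420, minus strand: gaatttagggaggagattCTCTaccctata
Rplp0, chr12:46718376-46718405, minus strand: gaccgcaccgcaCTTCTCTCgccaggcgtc

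In Eef1a1 and in 8 of these 10 ribosomal genes the run was at least 5 bases long; it was 12 bases in Rpl31 and Rpl10, 7 in Eef1a1, 4 in Rpl24 and 1 in Rpl41. Over the ribosomal genes of the set that have an entry, 21 of 31 (67.7%) held a run of 5 or more pyrimidines led by a C within 5 bases of the start. The share was 15.9% (36 of 227) in the other members with an entry and 16.2% (792 of 4890) in all named genes with one. An annotated start can lie several bases from the start used in these cells, so a gene without a run in this window may hold one nearby.

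Ribosomal genes were the most numerous role in the set and took most of its top. Roles were assigned to the 314 genes after the members were seen, each gene once. The ribosome supplied 40 genes, 17 of the 30 brightest probes and 41 of the 100 brightest. Of the 37 named genes on a list of ribosomal proteins, 36 (97.3%) were members; the exception was Rpl3, a protein of the large subunit, whose signals were 15.90, 16.81 and 16.19 on the tolerant arrays and 17.14 and 14.14 on the syngeneic arrays. Rpl3 therefore missed the threshold on syngeneic 2 alone.

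Tpt1, the translationally controlled tumour protein, which binds calcium and tubulin, had the highest mean. Its log2 signals were 20.70, 20.88 and 20.60 on the tolerant arrays and 20.88 and 20.88 on the syngeneic arrays, so it was the brightest of all probes on 3 of the 5 arrays. Eef1a1, the elongation factor that brings aminoacyl-tRNA to the ribosome, followed at 20.60, 20.70 and 20.88 on the tolerant arrays and 20.74 and 20.70 on the syngeneic arrays. The values of both groups overlapped for both genes, and these signals sit at the ceiling that normalization sets.

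Among ribosomal proteins, Rpl41 of the large subunit averaged 20.59 ± 0.10 (SD, n = 5 arrays, as in all such values below). Rplp1, a stalk protein that recruits elongation factors, has 2 member probes with means of 20.49 and 20.40. Its first probe read 20.09, 20.36 and 20.55 on the tolerant arrays and 20.70 and 20.74 on the syngeneic arrays, and its second probe read 20.55, 20.60 and 20.30 on the tolerant arrays and 20.36 and 20.19 on the syngeneic arrays. The probes of this gene thus order the arrays differently. The probe annotated Rps4x-ps9 (mean 20.42) and the one annotated Rps27a-ps1 (19.46) bear names of pseudogenes in RefSeq, as does Ndufs6-ps1 (15.53). A probe for a processed pseudogene can share its sequence with the parent gene, and the probe sequences were not used here, so these 3 are uncertain. Rpl17, Rps25, Rps21, Rpl9, Rps18, Rps29, Rpl31, Rpl10, Rpl24, Rplp0, Rps15a and Rpl6, which also stand among the 30 brightest, had means of 19.52 to 19.998.

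The ribosomal genes moved little between arrays and moved together on 1 of them. Their median SD was 0.22, and 25 of the 40 had their lowest value on tolerant 1, where the median deviation from the gene's own mean was -0.24; on the other 4 arrays it lay between 0.02 and 0.08. Over all members tolerant 1 was the lowest array for 74 of 319 probes. Of the 16 named translation factors 7 were members, and among translation and assembly genes Rack1, a scaffold on the small subunit, averaged 18.26, Btf3, of the nascent chain complex, 17.63, and Eif3h, an initiation factor subunit, 17.48.

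**Figure D1:**
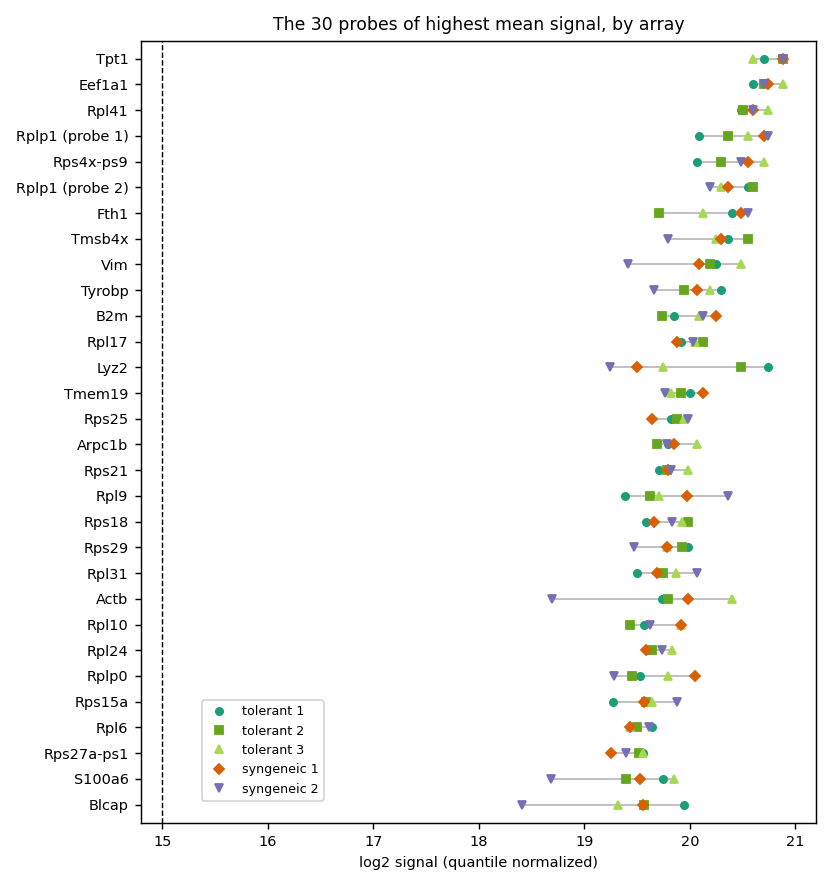
Log2 signal (horizontal axis) of the 30 probes with the highest mean, 1 symbol per array and a grey line from the lowest to the highest array. The dashed line marks the threshold of 15, and ribosomal genes fill 17 of the 30 rows. Syngeneic 2 is the lowest array for several rows, among them Tmsb4x, Vim, Tyrobp, Lyz2, Actb, S100a6 and Blcap.

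Cytoskeletal genes came next near the top. Tmsb4x, which binds actin monomers, had signals of 20.36, 20.55 and 20.25 on the tolerant arrays and 20.30 and 19.79 on the syngeneic arrays. Vim, the intermediate filament protein of leukocytes and mesenchymal cells, had 20.25, 20.19 and 20.48 on the tolerant arrays and 20.08 and 19.42 on the syngeneic arrays. Syngeneic 2 was the lowest array for both genes. Arpc1b, a subunit of the actin-branching Arp2/3 complex that is found mainly in blood cells, averaged 19.84, and Actb, cytoplasmic actin, averaged 19.72 ± 0.63, with 19.74, 19.79 and 20.40 on the tolerant arrays and 19.98 and 18.70 on the syngeneic arrays. In all, 12 of 28 named genes of the actin list and 5 of 10 of the tubulin and intermediate filament list were members. Over all named genes the share was 5.24%. The role held 24 genes, among them Pfn1 (18.10), profilin, which feeds actin monomers to growing filaments.

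Iron storage was represented by both ferritin chains. Fth1, the heavy chain, which oxidises iron for storage, had 20.40, 19.71 and 20.12 on the tolerant arrays and 20.48 and 20.56 on the syngeneic arrays. Ftl1, the light chain, has 2 member probes with means of 19.17 and 18.32. On syngeneic 2 the second Ftl1 probe read 15.51, against 18.51 to 19.34 on the other 4 arrays, while the first read 18.46 there, against 19.03 to 19.63. Of 9 named iron genes 2 (22.2%) were members, beside 5.24% of all named genes. Of the others, Blvra, biliverdin reductase, missed the threshold on 2 arrays, while Hmox1, haem oxygenase, averaged 11.90 and Cp, ceruloplasmin, was at background. The antioxidant members were led by Prdx5 (18.57), Sod1 (17.60), Glrx (17.49) and Txn1 (17.13), 7 of 24 on that list.

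Antigen presentation held 7 genes and varied more than most roles, with a median SD of 0.55. B2m, the invariant light chain of MHC class I, had 19.85, 19.74 and 20.08 on the tolerant arrays and 20.25 and 20.12 on the syngeneic arrays. Class I heavy chain probes lay lower: RT1-CE16 read 15.28, 15.06 and 15.12 on the tolerant arrays and 16.12 and 12.21 on the syngeneic arrays, and missed the threshold on syngeneic 2. Tap2, of the peptide transporter, averaged 15.86 and was a member, whereas Tap1 averaged 11.28. The class I genes are polymorphic, both groups of recipients are LEW.1A, and the probe sequences were not used here.

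Class II transcripts stood in the abundant set although cells bearing class II had been removed. Of 10 named genes of the class II pathway, 4 were members, beside 5.24% of all named genes. Cd74, the invariant chain that escorts class II, had 19.11, 20.25 and 19.27 on the tolerant arrays and 19.27 and 17.94 on the syngeneic arrays. RT1-Da, the DR alpha chain homologue, had 16.95, 18.64 and 17.36 on the tolerant arrays and 17.23 and 15.17 on the syngeneic arrays. Both were highest on tolerant 2 and lowest on syngeneic 2, and the values of the groups overlapped. RT1-Bb, the DQ beta chain homologue, had 15.62, 17.22 and 16.06 on the tolerant arrays and 15.77 and 15.53 on the syngeneic arrays, again highest on tolerant 2. RT1-DMb, which edits peptides on class II, averaged 17.68 ± 0.55. The class II transactivator Ciita averaged 13.11 and lay above background on every array, and RT1-Db1 was at background on all 5. Cd79b, the B cell receptor component, was also highest on tolerant 2, with 14.72, 17.47 and 15.62 on the tolerant arrays and 12.38 and 13.999 on the syngeneic arrays. Of the 6 named genes on the B cell list, 1 (Cd37) was a member, 1 lay above background everywhere, 3 on some arrays and 1 on none. Their summed signal on the log2 scale was 17.82, 18.79 and 17.97 on the tolerant arrays and 17.39 and 17.80 on the syngeneic arrays, highest on tolerant 2. Cd37, a tetraspanin also found on other leukocytes, made up most of that sum on every array. It had 17.52, 17.92 and 17.47 on the tolerant arrays and 17.16 and 17.65 on the syngeneic arrays. The sum is thus no measure of B cells alone. The part of B cells in the class II signal was not tested, and in bulk RNA more cells of a type and more RNA per cell cannot be told apart.

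Of the other antigens used in the sort, those used for collection were dim at the RNA level. Cd80, a costimulatory ligand of CD28 and CTLA4, was at background on all arrays, between 7.28 and 8.61. Cd86, its partner ligand, had 10.76, 12.20 and 11.47 on the tolerant arrays and 11.66 and 9.14 on the syngeneic arrays, above background on tolerant 2, tolerant 3 and syngeneic 1. For CD3, Cd3d had 10.91, 10.45 and 11.14 on the tolerant arrays and 13.88 and 14.76 on the syngeneic arrays, and Cd247 averaged 10.26. Cd3d lay above background on tolerant 3 and on both syngeneic arrays, in a preparation depleted of CD3-positive cells.

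Genes of myeloid cells followed, led by Tyrobp and Lyz2. Lyz2, the lysozyme of monocytes, macrophages and neutrophils, had 20.75, 20.48 and 19.75 on the tolerant arrays and 19.50 and 19.24 on the syngeneic arrays. All 3 tolerant values lay above both syngeneic ones, a difference that was not tested here. Tyrobp, the adaptor of activating receptors on myeloid and NK cells, had 20.30, 19.95 and 20.19 on the tolerant arrays and 20.07 and 19.66 on the syngeneic arrays. Tyrobp varied little and its groups overlapped.

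On the list of monocyte and macrophage markers, 6 of 20 named genes (30.0%) were members, beside 5.24% of all named genes. Of the others, 4 lay above background on every array, 9 on some arrays and 1, Tlr4, on none. Over all named genes these shares were 17.1%, 24.2% and 53.4%. Ccr2 (8.08), Cebpa (9.09), Itgam (9.38), Tlr2 (9.60) and Spi1 (10.20) were at background on syngeneic 2 alone. Npy and Cx3cr1 lay above background on syngeneic 2. Besides Lyz2 the members were Psap, the precursor of saposins in the lysosome (18.01 ± 1.48), Ctss, the cathepsin that trims the invariant chain (17.80 ± 0.35), Cebpb, a transcription factor of myeloid differentiation (17.36 ± 0.43), Cd36, a scavenger receptor (16.58), and Lst1, a small membrane protein of myeloid cells (16.14). Cd36 had 16.86, 15.99 and 17.16 on the tolerant arrays and 16.43 and 16.44 on the syngeneic arrays. Cd14, the lipopolysaccharide co-receptor, came close, with 15.85, 15.44 and 15.75 on the tolerant arrays and 15.09 and 13.84 on the syngeneic arrays. Most of these lysosomal and early response genes are also expressed by other leukocytes, and Psap and Ctss count under the lysosome list as well.

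Several further myeloid genes of the set were picked out after their values were seen. Ly6c, whose mouse counterpart marks classical monocytes, had 18.15, 17.80 and 18.50 on the tolerant arrays and 18.32 and 16.52 on the syngeneic arrays. Fcnb, ficolin B, a secreted recognition molecule of the lectin complement pathway made by myeloid cells, had 17.41, 17.09 and 17.26 on the tolerant arrays and 17.00 and 15.81 on the syngeneic arrays. Fn1, fibronectin, had 18.81, 18.60 and 18.95 on the tolerant arrays and 18.50 and 17.49 on the syngeneic arrays. Each of these 3 was lowest on syngeneic 2, where 14 of the 27 genes of the myeloid and leukocyte surface role and 6 of the 10 secreted proteins had their minimum. C5ar1, the receptor of the anaphylatoxin C5a, varied less: 17.04, 16.73 and 17.08 on the tolerant arrays and 16.59 and 16.88 on the syngeneic arrays. The myeloid receptors Lilrb2 (16.65) and Clec4a3 (16.41), the Src-family kinase Lyn (16.53), the inflammasome adaptor Pycard (16.48) and Gnai2 (18.52), the G protein subunit of chemoattractant receptors, were also members.

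Of 13 named neutrophil markers 1 (7.69%) was a member, beside 5.24% of all named genes; 1 more lay above background on every array, 7 on some arrays and 4 on none. S100a8, a subunit of calprotectin, had 16.54, 15.20 and 16.01 on the tolerant arrays and 17.92 and 19.59 on the syngeneic arrays, the widest range of any member at 4.39. Its partner S100a9 had 16.23, 9.25 and 14.06 on the tolerant arrays and 19.11 and 20.51 on the syngeneic arrays, and so lay at background on tolerant 2. For both, every syngeneic value lay above every tolerant value, which was not tested here. Among the genes above background on some arrays, Pglyrp1, a granule protein that binds peptidoglycan, had 10.51, 10.80 and 10.57 on the tolerant arrays and 13.52 and 15.34 on the syngeneic arrays, and Il1r2, the decoy receptor of interleukin 1, had 9.80, 8.56 and 8.67 on the tolerant arrays and 11.50 and 13.95 on the syngeneic arrays. Other genes of the list did not share this order. Itgam, also on the monocyte and macrophage list, had 11.998, 12.18 and 13.38 on the tolerant arrays and 12.87 and 9.38 on the syngeneic arrays. Cxcr2 and Mmp8 lay above background on syngeneic 1 alone, and Mmp9 on syngeneic 2 alone. The granule and defensin genes Lcn2, Np4 and Defa5 and the receptor Cxcr1 were at background on every array. Cebpe, a granulocyte transcription factor, averaged 13.15 and was lowest on syngeneic 2, at 12.20.

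The brightest S100 and annexin members varied less than S100a8. S100a6 averaged 19.44, S100a10 19.17, S100a4 19.16 and Anxa2, the partner of S100a10, 19.13. S100a4 had 19.69, 19.10 and 19.40 on the tolerant arrays and 19.15 and 18.47 on the syngeneic arrays. These calcium-binding proteins act in motility and membrane repair and are common in monocytes. Each of the 4 was lowest on syngeneic 2.

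On the list of common leukocyte genes 12 of 24 named genes (50%) were members, beside 5.24% of all named genes. None was at background everywhere. Not every gene of the list is shared by all leukocytes, since Tyrobp is the adaptor of myeloid and NK cells. Beside Tmsb4x and Tyrobp the members include Gmfg (18.39), an actin regulator of blood cells, and the tetraspanin Cd53. Cd53 had 17.88, 18.21 and 18.09 on the tolerant arrays and 18.06 and 18.52 on the syngeneic arrays. Cyba, the p22phox subunit of the phagocyte oxidase, averaged 17.45. Ptprc, the pan-leukocyte marker CD45, had 13.74, 13.99 and 14.56 on the tolerant arrays and 14.42 and 8.06 on the syngeneic arrays. Its probe was thus at background on syngeneic 2, as were the probes of Spi1, the myeloid and B cell regulator PU.1, and Ucp2 there.

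Markers of other blood cells supplied few members; the lists are short, and 5.24% of all named genes were members. Dendritic cells, T cells, NK cells, platelets and erythroid cells supplied 0 members of 7, 17, 19, 8 and 10 named genes. On the mast cell, basophil and eosinophil list the only member of 19 was Srgn (17.10), the granule proteoglycan serglycin, which most leukocytes express, and on the B cell list it was Cd37 (17.54), a tetraspanin also found on other leukocytes. With so few genes, counts of 0 or 1 lie near that share and say little of a cell type. On some arrays but not all, 14 of 17 T cell genes and 13 of 19 NK cell genes lay above background. So did 24.2% of all named genes and 64 of 482 olfactory receptor genes. Lat, Klrd1 and Gzmk did so on the syngeneic arrays alone, and Cd28 and Xcl1 on syngeneic 2 alone. Others, such as Cd2 and Klrk1, did so on tolerant arrays as well. Ccl5, a chemokine of NK and T cells, lay above background everywhere, with 13.10, 12.32 and 11.82 on the tolerant arrays and 19.87 and 19.57 on the syngeneic arrays. Haemoglobin beta, Hbb, was at background on the tolerant arrays (8.09, 7.62 and 7.71) and read 14.50 and 20.30 on the syngeneic arrays. Bpgm, a red cell enzyme, was likewise highest on syngeneic 2, at 15.58 there and 11.73 to 12.32 on the other 4 arrays. These genes are not members, because the rule asks for 15 or more on every array. The summed signal of the 10 erythroid genes, on the log2 scale, was 13.45, 13.32 and 12.95 on the tolerant arrays and 15.74 and 21.19 on the syngeneic arrays, and that of the 13 neutrophil genes was 17.57, 15.77 and 16.82 on the tolerant arrays and 19.71 and 21.16 on the syngeneic arrays. Both sums were highest on syngeneic 2, the array that stands apart in the set, and their part in that was not tested. Hbb and Hbb-b1 made up most of the erythroid sum on both syngeneic arrays. S100a8 and S100a9 made up most of the neutrophil sum on every array. On syngeneic 2 each sum thus rests mainly on these genes and does not show a rise of its whole list. The 20 monocyte and macrophage genes summed to 21.58, 21.24 and 21.13 on the tolerant arrays and 20.97 and 21.10 on the syngeneic arrays. That list holds Npy, neuropeptide Y, which had 8.52, 9.56 and 10.62 on the tolerant arrays and 16.70 and 20.05 on the syngeneic arrays. Without Npy the other 19 genes summed to 21.58, 21.24 and 21.13 on the tolerant arrays and 20.89 and 20.15 on the syngeneic arrays, lowest on syngeneic 2. Lyz2, which neutrophils also express, was the brightest of these 19 genes on every array and weighs most in their sum. Of the 8 platelet genes 5 were at background on every array, near the 53.4% of all named genes.

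**Figure D2:**
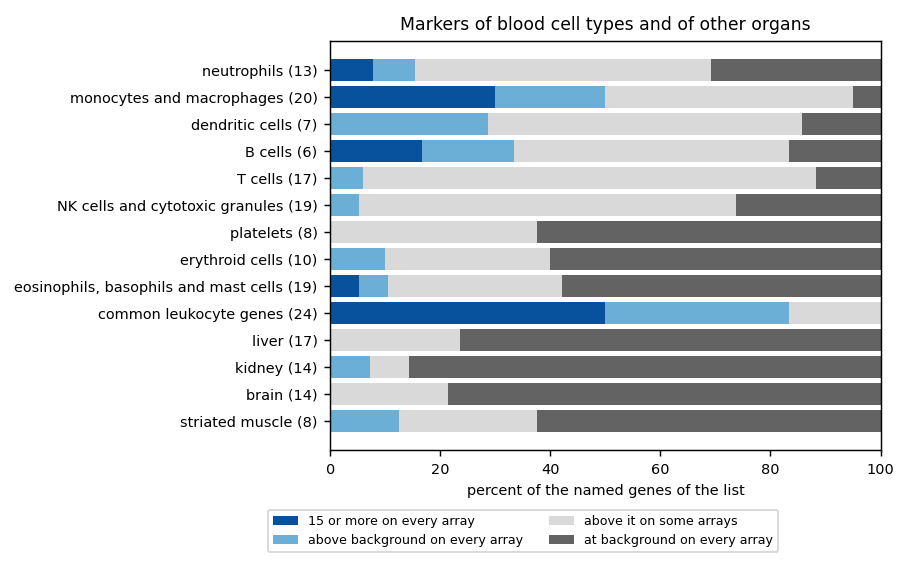
Percent of the named genes of each marker list (number in brackets) that were members, above background on every array, above it on some arrays, or at background on every array. Common leukocyte genes have the largest member share at 50%, monocyte and macrophage genes follow at 30.0%, and the lists of 4 solid organs have none. Over all named genes the share was 5.24%.

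**Figure D3:**
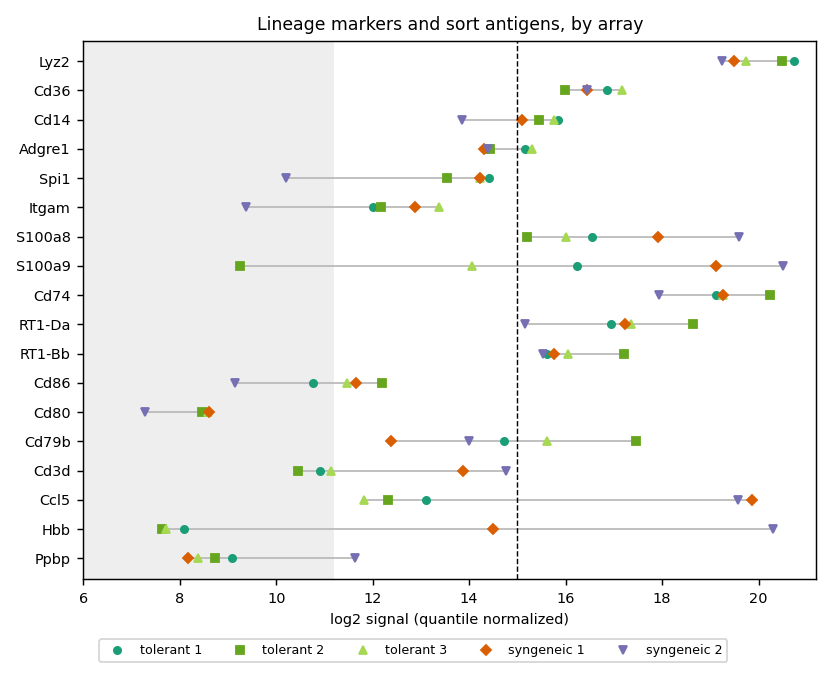
Log2 signal (horizontal axis) of chosen lineage markers and sort antigens, 1 symbol per array; the dashed line is the threshold of 15 and the grey area ends at the highest background level, 11.17. Lyz2, Cd36, Cd74 and RT1-Da lie right of the threshold on all 5 arrays, Cd80 lies in the grey area, and S100a9 and Hbb span it and the brightest signals.

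Effectors of suppression were mixed. Of 22 named genes on that list 6 (27.3%) were members, beside 5.24% of all named genes. Of the others, 2 lay above background on every array, 6 on some arrays and 8 on none. The members were the galectins Lgals3 (17.62) and Lgals1 (16.30), the oxidase subunits Cyba (17.45) and Ncf1 (15.79), Cebpb and S100a8. Cebpb also stands on the monocyte and macrophage list, S100a8 on the neutrophil list and Cyba on the common leukocyte list. Lgals1 had 15.99, 15.70 and 15.25 on the tolerant arrays and 17.34 and 17.20 on the syngeneic arrays. Enzymes by which suppressor cells are often defined were at background on every array: Arg1, which consumes arginine, between 8.68 and 10.29, and Ido1, which consumes tryptophan, between 8.63 and 10.62. Nos2, which makes nitric oxide, had 12.05, 8.44 and 9.56 on the tolerant arrays and 12.68 and 14.58 on the syngeneic arrays. Arg1, Ido1 and Nos2 are no members and are given because the sorted cells bear the suppressor name.

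The list of secreted signals, with the misplaced Ptma counted, supplied members at the share of all named genes. On the list of chemokines and cytokines 3 of 57 named genes were members, a share of 5.26% beside 5.24% over all named genes. At background on every array were 33 of the 57, near the 53.4% of all named genes. The count was 5 without tolerant 3, 6 with a threshold of 14 or with 4 of 5 arrays at the threshold, and 7 by the mean. The members were Tnfsf13 (APRIL, 17.35 ± 0.26), which supports B cells and plasma cells, Ccl6, a chemokine of myeloid cells in rodents, and Ptma (18.79), which the list holds although it encodes a nuclear protein. Without Ptma the share on this list would be lower than that of all named genes. Ccl6 had 16.50, 16.10 and 15.83 on the tolerant arrays and 16.72 and 18.41 on the syngeneic arrays, with syngeneic 2 the highest. Il1b missed the set by the smallest margin of all named genes, with 14.998 on tolerant 2 and 15.39 to 18.95 on the other arrays. On the Fc receptor and complement list Tyrobp and C5ar1 were the members among 22 named genes (9.09%); Fcgr2b, the inhibitory Fc receptor, read 14.95 on tolerant 1 and 15.40 to 15.86 elsewhere.

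The lysosome was the fifth role by size, with 23 genes. On the lysosome list 16 of 37 named genes were members, beside 5.24% of all named genes. Ctsb, a cysteine protease, averaged 17.98 and Atp6v0c, of the proton pump, 17.76. Gabarap (17.68) and Map1lc3a (17.19), which build autophagosomes, were members outside that list. Psap had 18.95, 18.27 and 18.67 on the tolerant arrays and 18.78 and 15.41 on the syngeneic arrays, so 4 arrays lay within 0.68 and syngeneic 2 far below them. Of the 23 genes, 11 had their minimum on syngeneic 2 and 8 on tolerant 2.

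Energy metabolism supplied many members, which varied little between arrays. The mitochondrial role held 28 genes, and 19 of 38 named genes (50%) of the oxidative phosphorylation list were members. Slc25a5, which exchanges ADP for ATP across the inner membrane, averaged 17.71 ± 0.12, and Atp5f1e and Atp5mg of ATP synthase averaged 17.46 and 17.29. Cox4i1, of cytochrome oxidase, had 16.96, 16.96 and 17.26 on the tolerant arrays and 17.37 and 17.19 on the syngeneic arrays. The median SD of this role was 0.16, and no array was the lowest for more than 8 of its genes. The rule itself narrows this spread, since it leaves out a gene with 1 low array. Atp5f1b, the 1 gene of the list above background on some arrays only, read 13.7 to 14.5, and 8.45 on syngeneic 2. Of 21 named glycolysis genes 6 were members, led by Aldoa (18.19), Gapdh (17.99), Pkm (17.95) and Pgk1 (17.05). Another 6 were at background on every array. On some arrays only, 5 lay above it, among them Ldha (13.5 to 14.7, and 8.53 on syngeneic 2). Over all named genes 5.24% were members and 53.4% were at background.

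Protein turnover and nuclear genes lay nearer the threshold. Of 38 named proteasome and ubiquitin genes 12 were members, the highest being Psmb4 (17.14), and of 29 chaperone genes 6, led by the heat shock cognate Hspa8, with 17.03, 17.45 and 17.56 on the tolerant arrays and 17.45 and 18.11 on the syngeneic arrays. The proteasome count depends on the settings: it was 3 at a threshold of 16, 23 at 14, 5 without normalization and 6 scaled to 1 median. The RNA-binding list had 6 of 19 members, with Ybx1 (17.04) and Hnrnpf (16.74) among the role's brightest. The histone list had 3 of 12, with H3f3b, the replacement histone H3.3, at 17.65. Over all named genes the member share was 5.24%.

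Of 32 named early response genes 8 (25%) were members, beside 5.24% of all named genes. Another 12 lay above background on every array, 7 on some arrays, among them Jun and Egr1, and 5 on none. Btg1, an antiproliferative factor, averaged 18.51 ± 0.36. Dusp1, the phosphatase that switches off MAP kinases, had 19.17, 16.24 and 16.39 on the tolerant arrays and 18.17 and 18.84 on the syngeneic arrays, high on tolerant 1 and both syngeneic arrays. Zfp36, which destabilises cytokine messages, had 17.26, 15.53 and 15.87 on the tolerant arrays and 16.31 and 16.82 on the syngeneic arrays and ordered the arrays in the same way. Such genes respond to handling of cells as well as to signals in the animal, and its part here was not tested. Klf4, a factor of monocyte differentiation, was steadier at 17.50, 16.84 and 17.86 on the tolerant arrays and 17.02 and 17.23 on the syngeneic arrays. Hopx, an atypical homeodomain protein, picked out after its value was seen, was the brightest transcription regulator, with 19.02, 18.76 and 18.93 on the tolerant arrays and 19.03 and 18.57 on the syngeneic arrays.

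**Figure D4:**
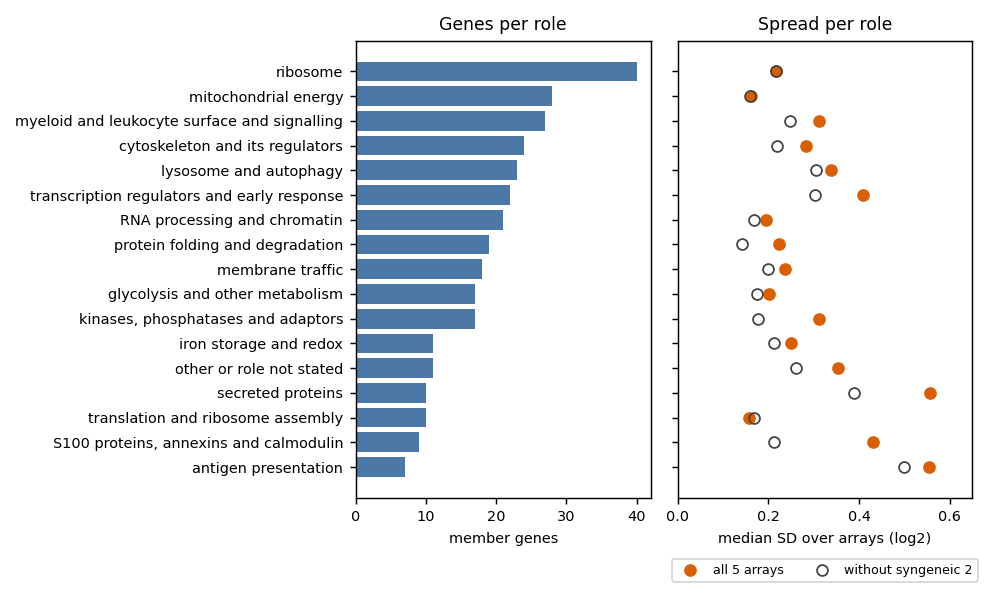
Left, number of member genes in each of the roles assigned after the members were seen; right, the median over genes of the SD of log2 signal across arrays, with all 5 arrays (filled) and without syngeneic 2 (open). The ribosome holds the most genes (40), and secreted proteins (0.56) and antigen presentation (0.55) have the widest spread, against 0.39 and 0.50 without syngeneic 2.

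Genes of other organs were set beside the ranking. The lists for liver, kidney, brain and striated muscle held 0 members of 17, 14, 14 and 8 named genes. On lists this short, 0 members lies near the 5.24% of all named genes. At background on every array were 13, 12, 11 and 5 of these genes, beside 53.4% of all named genes. Aqp2 of the kidney list (mean 12.06) and Tnnt3 of the muscle list (12.60) lay above background on every array. Of 482 olfactory receptor genes 1 was a member: the probe annotated Or9a4 read 18.06, 17.79 and 17.69 on the tolerant arrays and 17.49 and 16.35 on the syngeneic arrays, while the next highest receptor had a lowest-array value of 11.29. What this probe binds cannot be told from the annotation, which dates from 2007.

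The same caution applies to other bright probes. Blcap, a protein named for bladder cancer, averaged 19.36 by 1 probe and 10.04 by its other probe, and Tmem19, a membrane protein of unknown role, averaged 19.93 and 12.82. Flii, an actin regulator, averaged 15.95, 9.62 and 8.95 by its 3 probes. The ranks of Blcap and Tmem19 among the 30 brightest therefore rest on 1 probe each that the other does not bear out. Rps21 has 2 member probes, at 19.82 and 16.46. Cox7a2, Ftl1, Rpl22, Rplp1 and Rps21 are the 5 genes whose probes were all members.

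Some second probes of member genes were at background on syngeneic 2. The first probes are members, so the rule itself held them at 15 or more on that array. Of the 13 other probes of member genes that missed the set, 5 were at background on syngeneic 2 alone, and 0 were at background on any other array alone; the genes are Cd36, Eef1a1, Grb2, Hnrnpk and Vdac2. The second Eef1a1 probe had 17.92, 18.36 and 18.15 on the tolerant arrays and 18.79 and 7.95 on the syngeneic arrays, while the first read 20.70 on syngeneic 2. The second Cd36 probe had 13.44, 12.41 and 14.50 on the tolerant arrays and 14.12 and 9.003 on the syngeneic arrays, while the first read 16.44 on syngeneic 2. Over all named probes, 237 were at background on syngeneic 2 alone, 107 on tolerant 1 alone and 9 to 14 on each of the other arrays. The 40 probes that only syngeneic 2 kept out of the set include those of Coro1a, an actin-binding protein of leukocytes (10.90 there), Nr4a1 (11.20) and the phosphatase Ptpn6 (11.48), and 20 of the 40 read under 14 there. These values come from the probes as deposited, and what sets syngeneic 2 apart was not tested.

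The members were followed over the arrays. The median SD was 0.26 and the median range 0.62, and 244 of 319 probes ranged over less than 1 on the log2 scale. The rule itself narrows this spread, since a probe with 1 low array is left out. The narrowest members were Ahcy, which hydrolyses S-adenosylhomocysteine, with 15.08, 15.08 and 15.08 on the tolerant arrays and 15.01 and 15.08 on the syngeneic arrays, then Atp5mg, the G protein subunit Gng5, Golga7, which helps to palmitoylate Ras, and the mitochondrial pore Vdac2, with ranges of 0.07 to 0.18. The widest were S100a8, the second Ftl1 probe, Psap, RT1-Da and Tax1bp1, an autophagy receptor, which had 15.37, 15.48 and 15.63 on the tolerant arrays and 16.29 and 18.71 on the syngeneic arrays. Of the 12 members that ranged over more than 2, 5 were lowest and 4 highest on syngeneic 2. Without that array 4 members ranged over more than 2: Dusp1, S100a8, Ppdpf and Lgals1. Syngeneic 2 was the lowest array for 100 of the 319 probes and the highest for 104, and the median SD without it was 0.21.

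**Figure D5:**
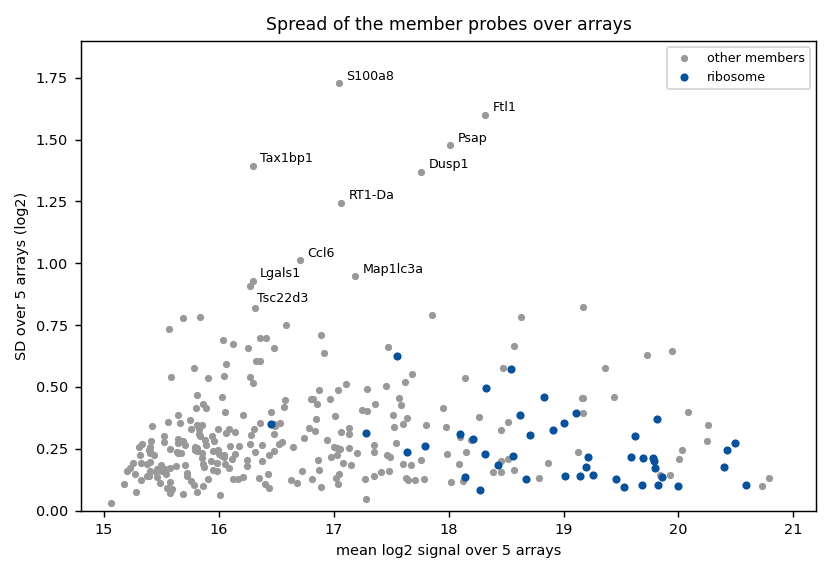
SD of log2 signal over the 5 arrays (vertical axis) against the mean log2 signal (horizontal axis), 1 point per member probe, with ribosomal genes in blue. Probes with an SD above 0.9 are named; S100a8 has the highest SD at 1.73, and ribosomal genes lie between 0.08 and 0.63.

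The threshold has no natural gap beside it. The members just inside, by their lowest array, were Atp5me (15.04), Flot1 (15.03), Hsbp1 (15.02), Sumo2 (15.02) and Ahcy (15.01). Just outside were Il1b (14.998), Dcaf11 (14.997), Ctbp1 (14.98), Atp5mc3 (14.98) and Mx1 (14.98). Of the member probes 11 had a mean of 20 or more, 42 of 19 or more and 96 of less than 16. The named genes hold only part of the abundant RNA: 699 probes met the threshold on every array, of which 376 are not in the annotation and 4 have several symbols.

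Promoters of the members, from 250 bases before to 50 after the RefSeq start in GRCr8, were read for motifs on both strands. An entry was found for 258 of the 314 members and for 4890 named genes. The GC box GGGCGG, to which Sp1 binds, was in 69.4% of the members and 49.6% of all named genes, and the median number of CpG sites was 22 in the members and 15 in all. The myeloid and leukocyte surface role lay below all named genes in both. A GC box was in 45.0% (9 of 20) of this role, and its median number of CpG sites was 9. In the mitochondrial and ribosomal roles the GC box was in 65.4% and 58.1%. The core CCGGAA of ETS factor sites was in 27.1% of the members, 61.5% (16 of 26) of the mitochondrial role, 41.9% of the ribosomal role and 18.5% of all. The TATA core TATAAA was in 11.6% of the members and 13.1% of all, and CCAAT in 34.1% of the members and 38.9% of all. The letters GAGGAA, the core of PU.1 sites, were in 28.3% of the members and 28.3% of all, in 40.0% (8 of 20) of the myeloid and leukocyte surface role, and in 54.8% of the ribosomal role. Its reverse complement TTCCTC consists of pyrimidines only and overlaps the start runs shown above, as in Rpl17. The named genes are not a random sample of the genome, and a match of these letters is not a bound site.

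Lyz2 and Cd53 are shown because they are bright leukocyte genes with GAGGAA close to the start; of the myeloid surface and secreted members with an entry, with Itm2b they are the 3 brightest, and Itm2b has no match. In Lyz2 the match begins 46 bases before the start. In Cd53 the match is on the other strand and begins 44 bases before the start. Capitals mark the match or its reverse complement.
Lyz2, chr7:54797962-54798261, minus strand: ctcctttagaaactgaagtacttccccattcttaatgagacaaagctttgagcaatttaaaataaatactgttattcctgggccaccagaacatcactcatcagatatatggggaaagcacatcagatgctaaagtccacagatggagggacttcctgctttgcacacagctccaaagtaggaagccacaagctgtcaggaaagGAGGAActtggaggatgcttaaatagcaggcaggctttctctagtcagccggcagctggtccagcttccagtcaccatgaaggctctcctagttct
Cd53, chr2:197087847-197088146, minus strand: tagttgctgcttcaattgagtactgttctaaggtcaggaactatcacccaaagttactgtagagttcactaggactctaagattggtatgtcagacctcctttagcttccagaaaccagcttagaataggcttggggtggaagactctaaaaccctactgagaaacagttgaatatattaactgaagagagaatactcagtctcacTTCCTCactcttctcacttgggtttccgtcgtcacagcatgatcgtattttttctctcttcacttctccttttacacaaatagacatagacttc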

How the data were processed

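RNA of 5 samples was measured on a 1-colour array of 60-base probes; groups come from the titles. Unnormalized linear intensity per probe was deposited in 1 table and used for checks and alternatives. All reported levels are the deposited log2 values, which quantile normalization of the intensities gave back to within 0.00047 (nearly all probes); no source used here names the software. Gene symbols come from the platform annotation of 2007: of 26856 probes, 6104 have 1 symbol, 70 several, and 20682 are unnamed here. Of the 314 member genes 312 matched RefSeq symbols. Python 3.11.15, pandas 2.3.3 and numpy 2.4.6 were used; the selection was tested on simulated data. No test was made, and the number of arrays limits the precision.

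Members, the 35 gene lists and the rule for named genes were chosen with earlier results of these data known: the 30 brightest probes, the 4 brightest members of each list, the 5 nearest on each side of the threshold, the 5 widest and narrowest, all sort antigens and all lineage list members. Other genes named, and the 17 roles, were chosen after values were seen. A gene with several probes counts as a member if any qualifies and is given by its brightest probe. Background was set per array from the olfactory receptor probes (95th percentile). Protein lengths were not analysed here.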

Additional observations from a re-analysis of the deposited data

How the results depend on the processing

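The number of member genes, 314 as reported, became 515 with a threshold of 14 and 169 with 16. The other settings left it within 1.5 times: 384 with 4 of 5 arrays at the threshold, 412 by the mean, 231 without normalization (226 of them shared), 274 scaled to 1 median (264 shared), 322 with probes of several symbols, and 319 to 352 without each array in turn, the highest without syngeneic 2. Requiring every probe of a gene to qualify, a setting chosen after seeing the data, gave 302. Members of the functional lists numbered 160, with 110 to 210 over the settings and 162 to 177 without each array. Members of the lineage lists, leaving out common leukocyte genes and the sort antigens, numbered 9, and 5 with a threshold of 16, and 9 to 11 without each array. With background at the 99th percentile, 50 lineage genes were at background on every array, against 35. The median SD was 0.21 to 0.26 without each array and 0.44 when scaled to 1 median. The GC box share was 66.9% and 64.0% at thresholds of 14 and 16, and 69.4% as reported. Protein length could not be given, since no protein table was used. No paired analysis was possible because the values come from no test and no group difference was tested. Signal over background does not limit the members, all of which lie well above it.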
